A study of Mus musculus with 48 samples.

Results

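Splicing of pre-mRNA in mouse liver was examined through the genes of 3 families of RNA-binding proteins: the SR proteins and their SR-related relatives, the hnRNPs and the RBM proteins. Members were taken by name from the symbol column of the array table, as every gene whose symbol began with Hnrnp, with Srsf or its older form Sfrs, or with Rbm and a number. The cold-inducible gene Rbm3, with 4 probe sets, was left out. The rule found 70 genes on 88 probe sets, among 21399 genes with a symbol on an array of 28815 probe sets. Each gene was represented by its probe set of highest mean signal, and 12 genes had more than 1. The members fell into 8 SR proteins, 9 SR-related genes, 18 hnRNPs and 35 RBM genes. All 70 matched a RefSeq gene, and 21 carried an older name in the file. Names below are current, with the older one given once in brackets.

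All mice were male, of the strain given as Bl6J in the labels (C57Bl6/J in the study's text), and 10 to 12 weeks old by the labels. Timed sleep restriction (TSR) meant gentle handling to hold the mice awake between zeitgeber time (ZT) 0, which is lights on, and ZT6, on 5 days, then 2 days of rest and 5 more days of handling, with food always available. Control mice were left undisturbed in parallel. Liver RNA from 3 mice per treatment was taken at ZT1, ZT7, ZT13 and ZT19 and hybridized to Affymetrix Mouse Gene 1.0 ST arrays, giving 8 groups and 24 liver arrays. Of the 48 arrays in the series, 24 were labelled as adipose tissue and were not analysed here. Mice shared cages, and the labels do not tie mice to cages, so the tests measured the spread between these mice. ZT1 falls inside the hours of handling and ZT7 follows their end. By the study's text, killing began in the evening before the last handling day. If the ZT13 and ZT19 mice were taken in that night, they lacked the last bout, which the ZT7 mice had completed. Time point and number of handling bouts could then not be told apart.

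SR proteins bind short enhancer elements in exons through RNA recognition motifs and recruit the splicing machinery through domains rich in arginine and serine, whose phosphorylation by Clk and Srpk kinases sets their activity and place in the nucleus. The hnRNPs coat nascent pre-mRNA and often keep exons out of the mature transcript, and several also act on mRNA stability. RBM is a naming class and not a pathway: its members hold RNA recognition motifs but include spliceosome partners, exon junction components, RNA decay adaptors and RNA modification cofactors. In rodent liver, levels and splicing of many transcripts vary with the time of day and with feeding.

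The promoters of 3 members are shown because their transcripts were lower after TSR at ZT7, where 52 of 63 tested members lay below control. Rbm26 had no match in this window to any of the 5 motifs of the set E-box, D-box, CRE, ETS site and heat shock element. Hnrnpd and Sfswap (Sfrs8) were the members called at ZT7 that held a match to any of these 5. The windows run from 250 bases before to 50 bases after the annotated start, are taken from RefSeq on GRCm38.p6, and are written along the gene's strand. Capitals mark a match to an E-box (CACGTG), a D-box (TTATGNAA) or an ETS site (CCGGAAGT), on either strand. The Rbm26 window lies at chr14:105177265-105177564 on the minus strand, that of Hnrnpd at chr5:99978889-99979188 on the minus strand, and that of Sfswap at chr5:129500981-129501280 on the plus strand, the first of 2 windows of this gene.
Rbm26: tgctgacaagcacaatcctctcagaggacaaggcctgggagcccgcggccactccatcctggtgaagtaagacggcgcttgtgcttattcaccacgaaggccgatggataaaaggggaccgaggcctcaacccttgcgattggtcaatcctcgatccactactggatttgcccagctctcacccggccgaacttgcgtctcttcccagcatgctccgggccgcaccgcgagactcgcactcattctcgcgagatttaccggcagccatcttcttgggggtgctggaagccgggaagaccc
Hnrnpd: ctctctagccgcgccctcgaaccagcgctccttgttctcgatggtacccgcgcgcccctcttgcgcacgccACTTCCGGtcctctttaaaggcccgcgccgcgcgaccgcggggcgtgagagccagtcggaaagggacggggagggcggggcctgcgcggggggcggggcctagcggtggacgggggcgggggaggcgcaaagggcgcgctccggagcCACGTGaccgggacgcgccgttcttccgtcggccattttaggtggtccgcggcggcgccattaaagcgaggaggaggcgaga
Sfswap: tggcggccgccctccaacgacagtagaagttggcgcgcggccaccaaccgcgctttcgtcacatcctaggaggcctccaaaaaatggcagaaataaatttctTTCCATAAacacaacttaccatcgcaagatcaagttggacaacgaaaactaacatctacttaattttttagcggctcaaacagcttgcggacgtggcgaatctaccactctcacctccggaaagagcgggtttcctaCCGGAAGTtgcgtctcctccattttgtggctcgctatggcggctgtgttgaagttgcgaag

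In Hnrnpd the E-box, the element bound by the clock factors Clock and Bmal1, began 32 bases before the start and the ETS site 179 bases before it. In Sfswap the D-box, bound by PAR bZIP factors such as Dbp, began 148 bases before the start and the ETS site 11 bases before it. A window was held for 60 of the 70 members. An E-box occurred in 8 of these (13.3%), against 7.24% of 27025 genes, and 4 of the 8 were hnRNPs (Hnrnpa3, Hnrnpd, Hnrnph2 and Hnrnpm). A D-box occurred in 3 windows (5%, against 3.52%), an ETS site in 6 (10%, against 4%) and a heat shock element (GAANNTTC) in 4 (6.67%, against 7.95%). The cAMP response element TGACGTCA occurred in 0 of the 60 windows, against 1.88% of all genes. The GC box GGGCGG occurred in 38 windows (63.3%, against 35.9%), in 7 of 8 SR windows and in 12 of 28 RBM windows. These are matches of letters and do not show binding.

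The liver identity of the arrays was checked with marker genes: all 10 hepatocyte markers were detected on each of the 24 arrays, with a summed log2 signal of 16.4 to 16.7. The TSR ZT19 replicate 3 array stood apart in 20 pancreatic acinar markers, with a summed log2 signal of 14.6 and 17 detected, against 9.90 to 11 and 2 to 7 detected on the other TSR arrays and 9.86 to 10.3 and 1 to 7 detected on control arrays. A second pattern set 5 arrays apart, which were all 3 controls of ZT19, replicate 3 of the ZT7 controls and replicate 3 of the TSR mice at ZT1. Its score used probe sets outside the members, weighted by the difference of the latter pair of arrays from their group mates. That pair therefore scored high by construction, at 30.4 and 32.3. On the 3 controls of ZT19 the score was 28.1 to 30.6, and on the other 19 arrays -20.7 to 16.3. At ZT19 this pattern and the control group cannot be told apart. Control arrays carried numbers 37 to 48 and TSR arrays 1 to 12, so numbering block and treatment cannot be told apart either. Since whole liver was measured, fewer cells of a type and less RNA per cell cannot be told apart.

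A probe set entered the tests when its mean liver signal was above 97.4, the median over the array. This held for 63 of the 70 members, among 12803 probe sets tested: all 8 SR and 9 SR-related genes, 17 of 18 hnRNPs and 29 of 35 RBM genes. The 7 genes below it were Hnrnpa1l2-ps (Hnrnpa1l2), Rbm46, Rbm31y, Rbm44, Rbm24, Rbm11 and Rbm20. Rbm43, at a mean signal of 100.02, was the member just inside and Rbm24, at 88.2, the member just outside. On all 24 arrays 41 members were detected by the deposited calls, and the probe sets that represent 3 tested members (Rbm6, Rbm19 and Rbm43) were detected on none, although Rbm6 has 2 dimmer probe sets that were detected on 19 and 24 arrays. Mean signals ran from 28.1 for Hnrnpa1l2-ps to 3508 for Hnrnpk, from 32.9 for Rbm11 and 35.5 for Rbm31y to 1144 for Rbm25 and 1784 for Rbm47, and from 104 for Akap17b (Sfrs17b) and 154 for Clasrp (Sfrs16) to 1379 for Srsf5 (Sfrs5) and 3459 for Srsf2 (Sfrs2). In the hnRNP family the mean signal was 201 for Hnrnph3 and 2297 for Hnrnpu. Brightness depends on the probes as well as on the RNA, so no level is ranked here between genes.

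**Figure D1:**
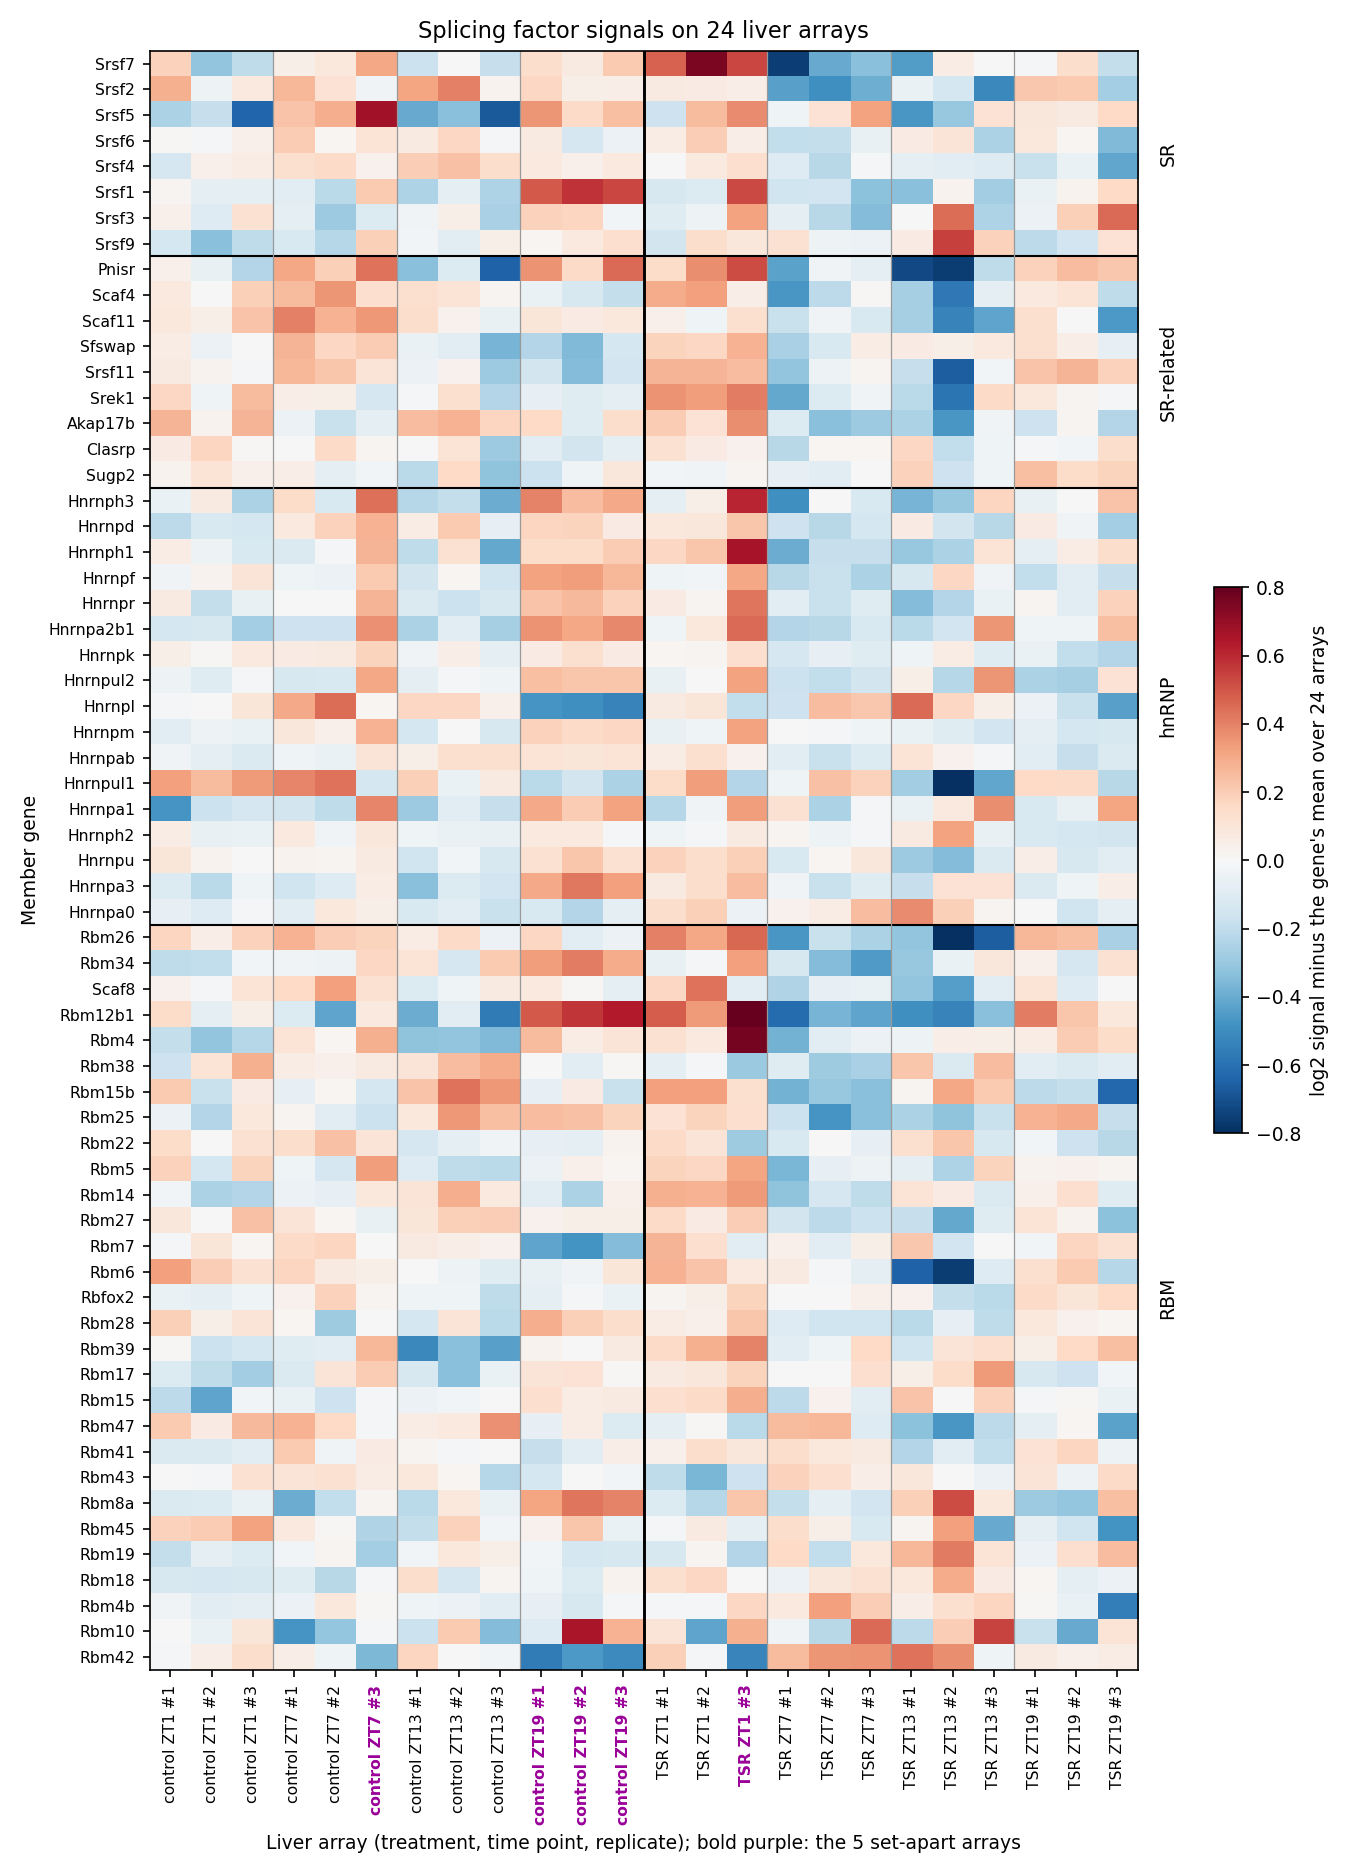
Deviation of each tested member (rows, by family) from its own mean over 24 liver arrays, on the log2 scale, for each array (columns, by treatment and time). Blue to red runs from below to above the gene's mean, with the colour scale ending at 0.8 on either side, and the 5 set-apart arrays (bold labels) show higher hnRNP signals, with a family median of 0.17 to 0.25 above the gene means.

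Most members were higher after TSR at ZT1 and lower at ZT7. The difference between TSR and control was above 0 at ZT1 for 48 of 63 members and below 0 at ZT7 for 52 of 63, and 41 members (65.1%) showed both signs, against 3558 of 12803 tested probe sets (27.8%). The reverse pair of signs was seen in 4 members (6.35%), against 29.2% of all. At ZT7 the sign was negative in 9 of 9 SR-related genes, 7 of 8 SR genes, 16 of 17 hnRNPs and 20 of 29 RBM genes, with family medians of -0.31, -0.24, -0.16 and -0.07 on the log2 scale, beside 0.01 over all tested probe sets. At ZT1 the medians were 0.14, 0.11, 0.15 and 0.13, beside 0.01. These counts describe signs, which single members mostly did not carry past the test. Without the 5 set-apart arrays, 34 members (54%) showed the ZT1 and ZT7 signs, against 23.1% of all, and the hnRNP medians became 0.10 and -0.09. Markers of endothelial cells also varied with time. Of 7 tested, 2 were called lower at ZT1 (28.6%, against 2.72% of all tested probe sets), with a list median of -0.35. At ZT7 1 was called higher and 1 lower (28.6%, against 14.8%), at ZT13 2 higher (28.6%, against 17.8%) and at ZT19 1 higher (14.3%, against 15.1%). The TSR difference changed between times in 5 (71.4%, against 20.6%). The summed log2 signal was 11.6 to 11.8 on TSR arrays and 11.4 to 12 on control arrays, with 5 to 7 markers detected. Markers of Kupffer cells and macrophages had a ZT1 median of -0.29, with 0 of 7 called. The part of endothelial RNA in the members' differences was not tested.

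At ZT1 the test called 4 members (6.35%), all higher after TSR, against 2.72% of all tested probe sets and 1.66% in that direction. They were Srsf7 (Sfrs7), Rbm4, Rbm14 and Rbm15. The count was 2 without control ZT1 replicate 1, 1 without control ZT1 replicate 3, and 0 by limma without control ZT1 replicate 2, without TSR ZT1 replicate 3 or without the 5 set-apart arrays, where 17 members each time had an unadjusted p under 0.05. The methods' t-test also called 0 after adjustment, with 20 members at an unadjusted p under 0.05.

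At ZT7 the test called 9 members (14.3%), 8 lower and 1 higher, against 14.8% of all tested probe sets, with 7.30% lower and 7.51% higher. The share was near the background, while the direction was mostly downward. Among the calls were 2 of 8 SR genes, 4 of 9 SR-related genes, 1 of 17 hnRNPs and 2 of 29 RBM genes. After quantile normalization 16 members were called, all lower. Leaving out single arrays gave 2 without control ZT7 replicate 1, 3 without control ZT7 replicate 3, 14 without TSR ZT1 replicate 3, 1 without TSR ZT7 replicate 1 and 5 without TSR ZT7 replicate 2, and 1 member was called without the 5 set-apart arrays. The methods' t-test called 0 after adjustment, with 20 members at an unadjusted p under 0.05.

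At ZT13 the test called 14 members (22.2%), 11 lower and 3 higher, against 17.8% of all tested probe sets, with 9.22% lower and 8.62% higher. Family medians at this time were -0.01 for SR, -0.19 for SR-related, 0.10 for hnRNP and -0.03 for RBM genes. The hnRNP median was 0.01 after quantile normalization. The count was 7 without control ZT13 replicate 1, 9 without control ZT13 replicate 2, 7 without control ZT13 replicate 3 and 7 without TSR ZT13 replicate 2, and without the 5 set-apart arrays it was 15. The methods' t-test called 0 after adjustment, with 13 members at an unadjusted p under 0.05.

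At ZT19 the test called 12 members, 8 lower and 4 higher, against 15.1% of all tested probe sets, with 6.15% lower and 8.95% higher. The lower ones included 5 hnRNPs and 2 SR genes. All 3 control arrays of this time point belong to the set-apart arrays, on which 14 of 17 hnRNPs and 8 of 8 SR genes were higher than on the other arrays, so a test without them could not be fitted. With the score of the set-apart pattern as a covariate, limma called 0 members at ZT19, while 14 had an unadjusted p under 0.05. The methods' t-test called 7 after adjustment. Single arrays moved the count to 3 without control ZT19 replicate 1, 2 without control ZT19 replicate 2, 3 without control ZT19 replicate 3, and 5 without TSR ZT19 replicate 1 or replicate 2. Without TSR ZT19 replicate 3, the array with pancreatic markers, it was 10.

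**Figure D2:**
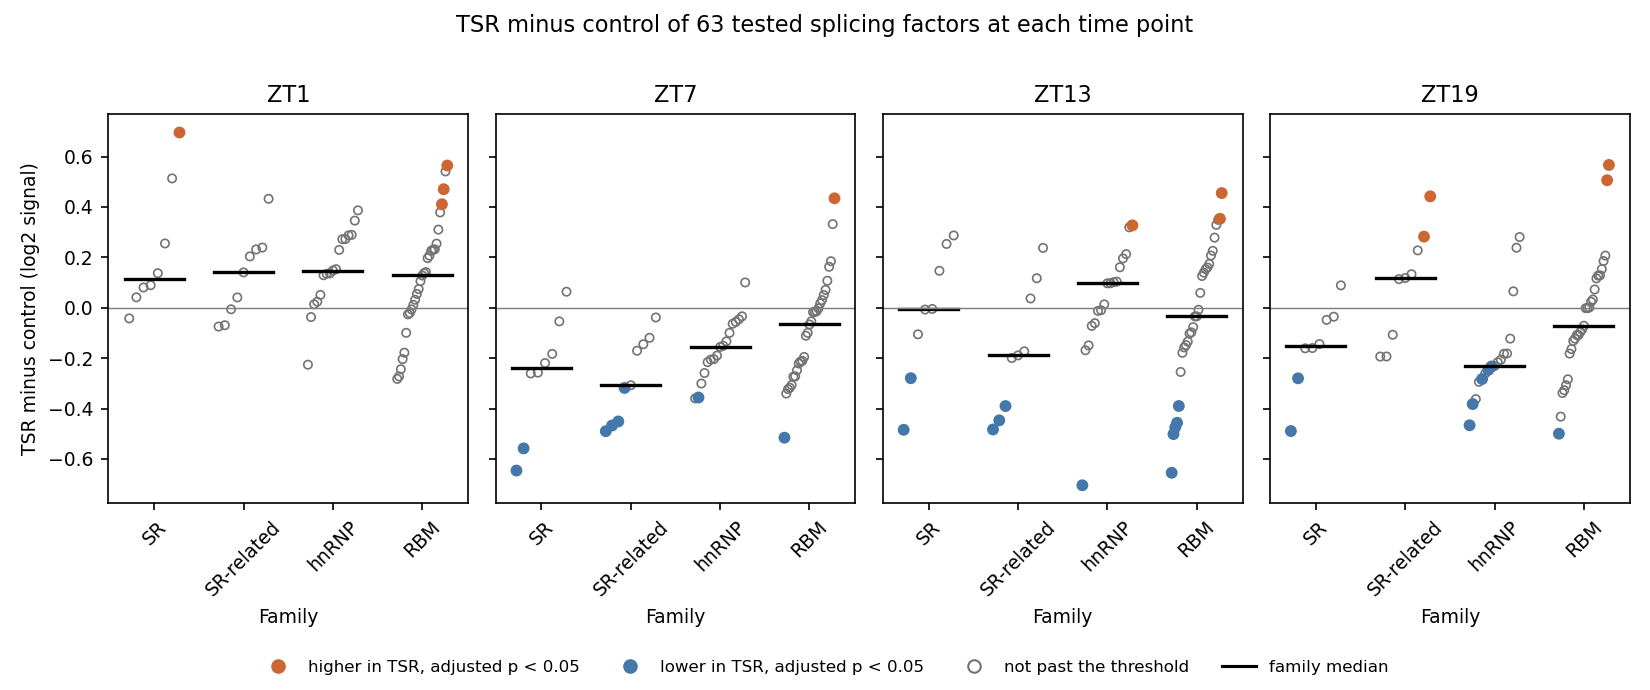
TSR minus control difference (log2, y axis) of each tested member by family (x axis), in 1 panel per time point, with filled points for members past the limma threshold of 0.05 and bars at the family medians. At ZT7, 52 of 63 members lie below 0, and at ZT1, 48 of 63 lie above it.

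Among the SR proteins, Srsf7 changed most between time points. Srsf7 promotes inclusion of exons through a zinc knuckle and an RNA recognition motif. At ZT1 its signals were 382, 269.6 and 291 in control and 465, 565 and 487 in TSR mice, and at ZT7 they were 347, 356 and 416 in control and 199, 253 and 266 in TSR mice. The groups did not overlap at either time, and the direction turned: Srsf7 was 1.62-fold higher after TSR at ZT1 (log2 difference 0.70, SE 0.147, adjusted p = 0.0158, limma) and 1.57-fold lower at ZT7 (-0.65, SE 0.147, adjusted p = 0.00990). Every member called at a single time had groups without overlap, so the lack of overlap adds no support to a call. The share of all tested probe sets without overlap was not counted. Srsf7 was detected on 1 of 3 TSR arrays at ZT7 and on 2 of 3 control arrays at ZT1. At ZT13 the group means were 309 ± 21.8 and 311 ± 55.9 (SD, n = 3), and at ZT19 370.3 ± 18.3 and 332 ± 37.8. The 4 differences spanned 1.34 on the log2 scale and were unequal (adjusted p = 0.00566). Without the 5 set-apart arrays the values were 0.72 (adjusted p = 0.0877) at ZT1 and -0.56 (adjusted p = 0.0731) at ZT7. The call at ZT1 was also lost without control ZT1 replicate 2 or 3 or without TSR ZT1 replicate 2 or 3, and that at ZT7 without control ZT7 replicate 3 or TSR ZT7 replicate 1.

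Srsf2, a founding SR protein that acts in constitutive and alternative splicing, was lower after TSR at ZT7 and ZT13. At ZT7 its signals were 4094, 3687 and 3348 in control and 2518, 2421 and 2596 in TSR livers. At ZT13 they were 4234, 4517 and 3477 in control and 3287, 3096 and 2385 in TSR livers. The groups were separate at both times, and close at ZT1 (means 3689 ± 425 and 3567 ± 27.2, SD, n = 3) and ZT19 (3624 ± 175 and 3575 ± 647). The difference was -0.56 at ZT7 (SE 0.136, adjusted p = 0.0126), -0.48 at ZT13 (SE 0.136, adjusted p = 0.0224) and -0.28 for the mean level over the 4 times (SE 0.068, adjusted p = 0.00588). The mean-level call held under each of the 33 alternatives. The ZT7 call was lost without control ZT7 replicate 1, and the ZT13 call without control ZT13 replicate 1 or 2 or TSR ZT13 replicate 3.

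Srsf4 (Sfrs4), a larger SR protein, was lower after TSR at ZT13 and ZT19. Control signals at ZT13 were 1302, 1336 and 1256, against 1076, 1071 and 1059 after TSR. At ZT19 they were 1199, 1168 and 1199, against 1004, 1096 and 852. No TSR value reached the lowest control value at either time, and the differences were -0.28 at both times (SE 0.085; adjusted p = 0.0315 and 0.0348). The mean level was lower by 0.17 (adjusted p = 0.00625). Srsf1 (Sfrs1), the best-studied SR protein and a splicing and export factor, was lower at ZT19, with 1192, 1268 and 1229.8 in control and 819, 865 and 949 in TSR mice (-0.49, adjusted p = 0.0292). On the set-apart arrays of other times Srsf1 was also high, at 983 for control ZT7 replicate 3 and 1224 for TSR ZT1 replicate 3. With the score of the set-apart pattern as a covariate the ZT19 difference of Srsf1 was -0.12 (adjusted p = 0.572). The ZT13 call of Srsf4 was lost when any of the 6 ZT13 arrays was left out, its ZT19 call when any ZT19 array other than TSR ZT19 replicate 2 was, and the ZT19 call of Srsf1 without any 1 of the 3 control arrays, TSR ZT19 replicate 1 or TSR ZT19 replicate 2.

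**Figure D3:**
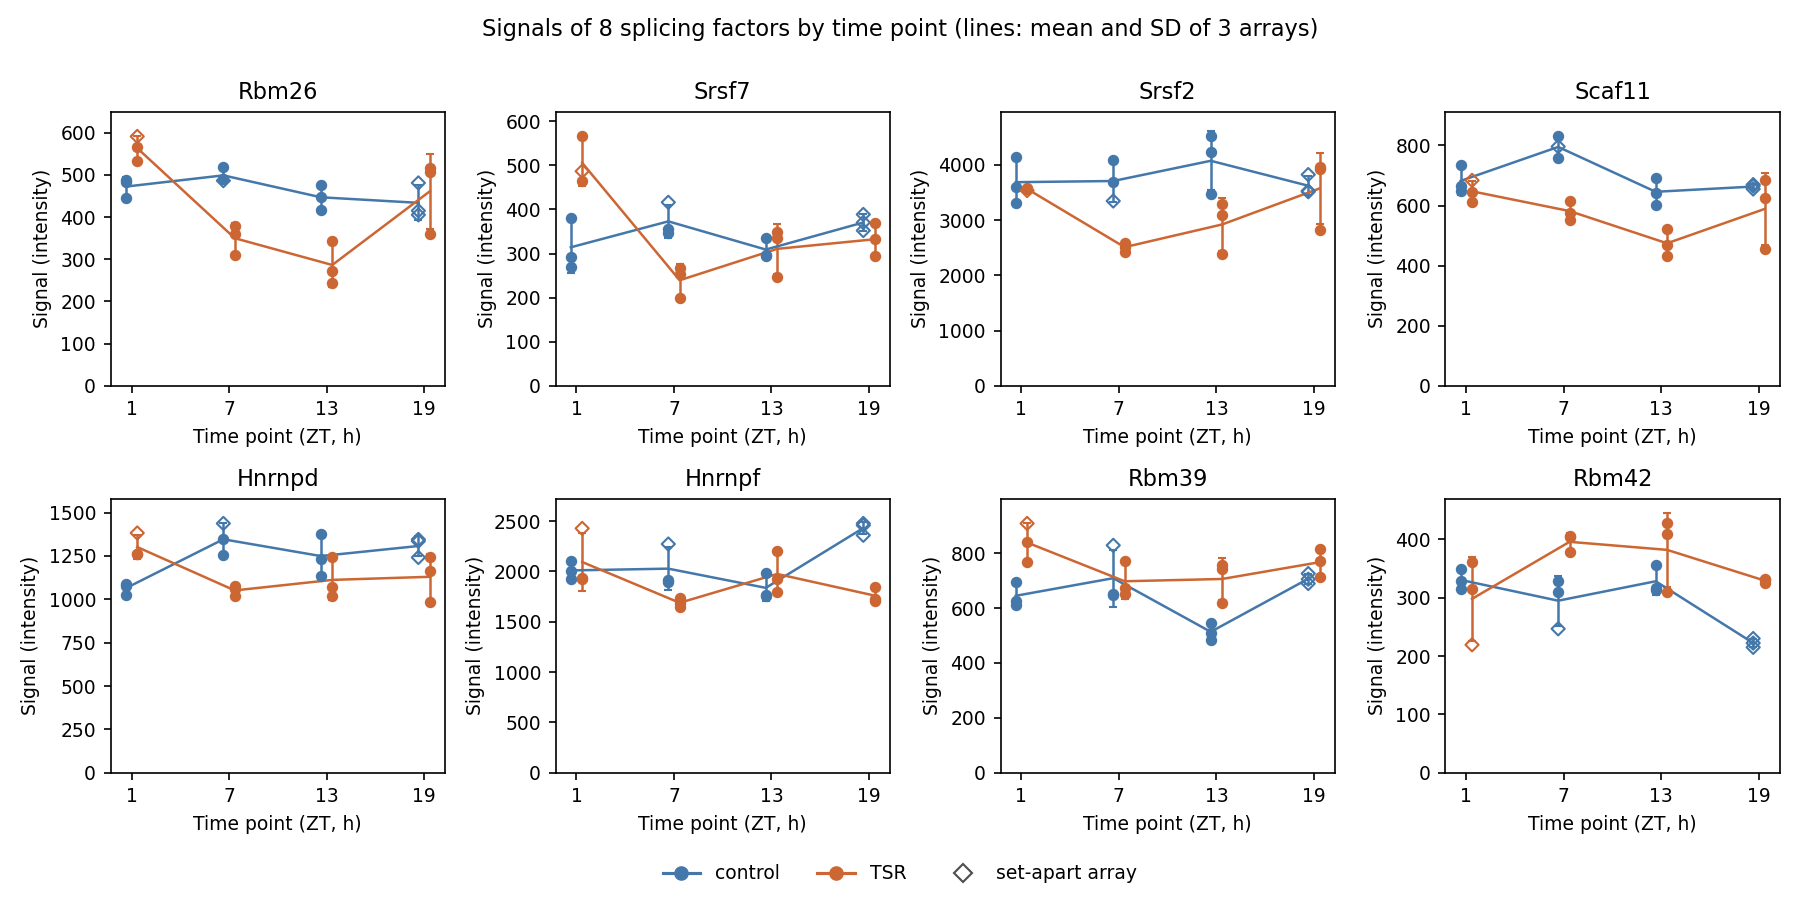
Signal (y axis, from the deposited table) of 8 members against zeitgeber time (x axis, h) for control and TSR livers, with points for single arrays, lines through the group means, error bars of 1 SD (n = 3) and open diamonds for set-apart arrays. Rbm26, Srsf7 and Srsf2 lie lower in TSR than in control livers at ZT7, Rbm39 lies higher at ZT13 on the probe set shown, and Hnrnpf lies lower at ZT19.

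The SR-related genes encode proteins with arginine and serine rich stretches that bridge splicing factors or couple them to RNA polymerase II. Scaf11 (Sfrs2ip), an SR-related protein that binds Srsf2, had the lowest adjusted p of the members for the mean level. At ZT7 its signals were 830.0, 759 and 796 in control and 553, 616 and 576 in TSR mice. At ZT13 they were 692, 642 and 603 in control and 522, 432 and 469 in TSR mice. Both sets were separate, with differences of -0.45 at each time (SE 0.114; adjusted p = 0.0143 and 0.0144), and the mean level was lower by 0.29 (SE 0.057, adjusted p = 0.00135), a call that held under all 33 alternatives. The ZT7 call was lost without control ZT7 replicate 1 or 3 or TSR ZT7 replicate 1, and the ZT13 call without control ZT13 replicate 1 or TSR ZT13 replicate 2.

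Scaf4 (Sfrs15), which binds the polymerase tail, followed Scaf11 at both times. Its ZT7 signals were 608, 651 and 558 in control and 369, 441 and 512 in TSR livers (-0.47, SE 0.128, adjusted p = 0.0210). At ZT13 it measured 557, 550.5 and 518 against 424, 343 and 485 (-0.39, adjusted p = 0.0412). Pnisr (Sfrs18), an SR-rich protein that binds pinin, measured 419.6, 387 and 457 at ZT7 in control and 251, 332 and 321 in TSR mice (-0.49, SE 0.154, adjusted p = 0.0387). In each of these sets the highest TSR value lay below the lowest control value. Akap17b was lower at ZT13, with 122, 125 and 116 in control and 86.2, 74.4 and 101 in TSR livers (-0.48, adjusted p = 0.00918), and in the mean level (-0.20, adjusted p = 0.0151), calls that no single array removed. The Scaf4 calls were lost at ZT7 without replicate 1 or 2 of either treatment, and at ZT13 when any ZT13 array but TSR ZT13 replicate 3, or control ZT19 replicate 2, was left out. That of Pnisr at ZT7 was lost without replicate 1 or 3 of either treatment.

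Sfswap, a regulator of its own splicing and of other exons, turned direction between ZT7 and ZT19. At ZT7 its signals were 247, 229 and 236 in control and 171, 188 and 213 in TSR mice (-0.32, SE 0.093, adjusted p = 0.0287). At ZT19 they were 174, 159.8 and 185 in control and 224, 212 and 195 in TSR mice (0.28, adjusted p = 0.0462). Neither pair overlapped, and its 4 differences spanned 0.60 (adjusted p = 0.0148). It was detected on 16 of 24 arrays. Srsf11 (Sfrs11), listed with the SR-related genes, was higher at ZT19, with 444, 386 and 443 in control and 574, 593 and 558 in TSR mice (0.44, adjusted p = 0.0270). The 3 control arrays of ZT19 are set-apart arrays in these differences too, and with the score as a covariate the values were 0.29 for Sfswap (adjusted p = 0.209) and 0.36 for Srsf11 (adjusted p = 0.244). The Sfswap call at ZT7 was lost without control ZT7 replicate 1 or 3 or TSR ZT7 replicate 1 or 2, and that at ZT19 when any of 14 single arrays was left out. The Srsf11 call was lost without any 1 of the 3 control arrays of ZT19, TSR ZT19 replicate 1 or TSR ZT19 replicate 2.

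The hnRNP calls lay mainly at ZT19, where 5 of 17 were lower after TSR. Hnrnpf, which binds runs of G and controls exon choice, measured 2457, 2476 and 2358 in control and 1708, 1841 and 1729.8 in TSR livers at ZT19. The groups lay far apart relative to their spread, a difference of -0.47 (SE 0.098, adjusted p = 0.0100). Hnrnpa3, an A/B-type hnRNP that also acts in mRNA transport, measured 2545, 2773 and 2590.5 in control and 1908, 2014 and 2148 in TSR mice (-0.38, SE 0.094, adjusted p = 0.0155). Hnrnpk, which binds runs of C, measured 3658, 3832 and 3663 in control and 3379, 3057 and 2976 in TSR mice (-0.25, adjusted p = 0.0254). Hnrnpm and Hnrnpab were lower by 0.28 (adjusted p = 0.0364) and 0.23 (adjusted p = 0.0240). For Hnrnpf, Hnrnpa3 and Hnrnpk, which have 3, 3 and 2 probe sets, all probe sets gave a lower value at ZT19. Whether probes of these sets also match other genes or processed copies was not examined here, so probe sets of 1 gene may share a source.

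In controls, both Hnrnpf and Hnrnpa3 had their highest mean at ZT19. Hnrnpf was 1837 ± 128 at ZT13 and 2431 ± 63.2 at ZT19 in control mice (SD, n = 3), and 1975 ± 209 and 1759.5 ± 71.0 in TSR mice. Hnrnpa3 was 1805 ± 145 and 2636 ± 121 in control mice at these times. The set-apart arrays of other groups were also high within their groups: control ZT7 replicate 3 measured 2272 for Hnrnpf against 1914 and 1896 in the same group, and TSR ZT1 replicate 3 measured 2427 against 1919.8 and 1933. Over the 17 hnRNPs the median difference between the 5 set-apart arrays and the other arrays was 0.28 on the log2 scale, with 14 of 17 (82.4%) higher, beside 48.8% of all tested probe sets. With the score of the pattern as a covariate, the ZT19 difference was -0.24 for Hnrnpf (adjusted p = 0.186), -0.20 for Hnrnpa3 (adjusted p = 0.267) and -0.11 for Hnrnpm (adjusted p = 0.520). The Hnrnpa3 call was also lost without control ZT19 replicate 2 or TSR ZT19 replicate 1, and those of Hnrnpk, Hnrnpm and Hnrnpab without any 1 of the 3 control arrays or TSR ZT19 replicate 2. That of Hnrnpk was lost also without TSR ZT19 replicate 3, and that of Hnrnpm without any TSR array of ZT19. No single array removed the Hnrnpf call.

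**Figure D4:**
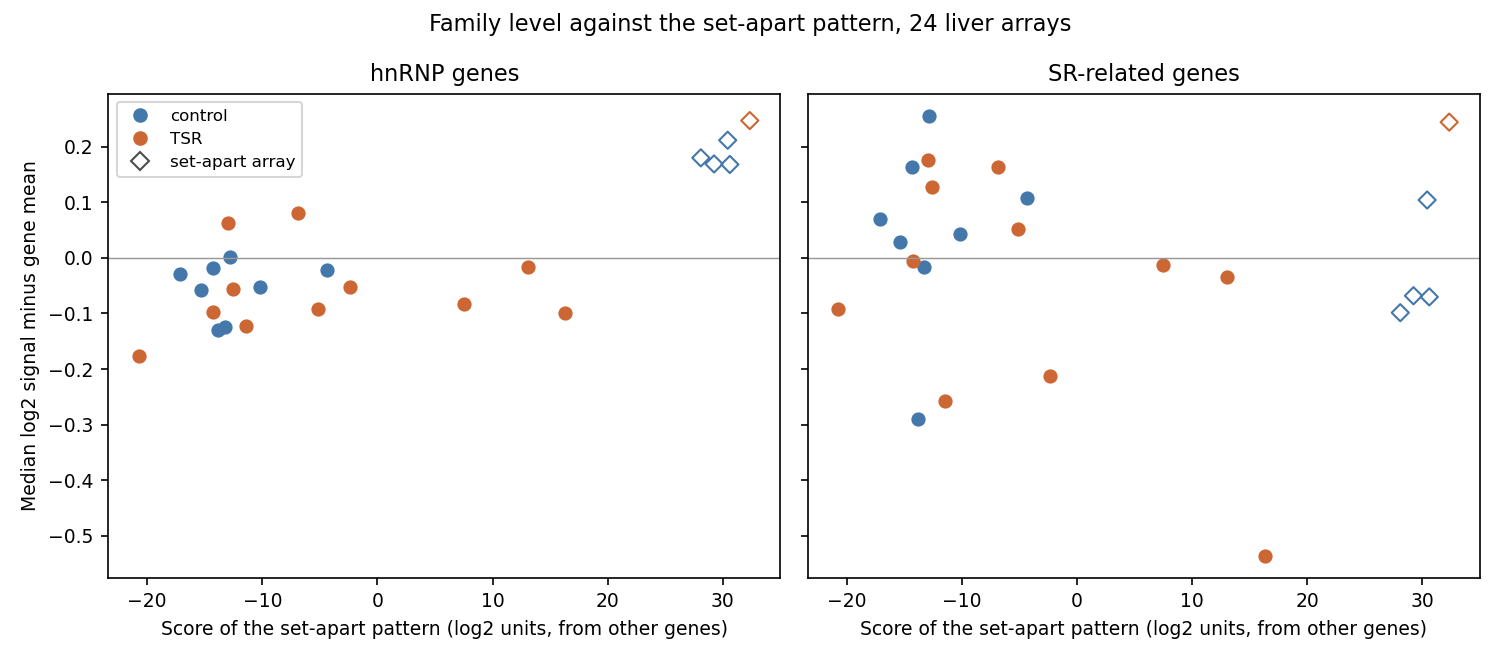
Median deviation of the hnRNP genes and of the SR-related genes from their own means (log2, y axis) against the score of the set-apart pattern (x axis, log2 units), 1 point per liver array and open diamonds for the 5 set-apart arrays. The hnRNP medians are 0.17 to 0.25 on the set-apart arrays and -0.18 to 0.08 on the other 19, while the SR-related medians overlap, at -0.10 to 0.24 and -0.54 to 0.26.

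Outside ZT19, 3 hnRNPs passed at single times on their brightest probe set. On dimmer probe sets limma also called Hnrnpa3 higher at ZT13 (0.33 and 0.34, adjusted p = 0.0241 and 0.0319). Hnrnpa1 was likewise higher at ZT13 (0.48, adjusted p = 0.0392), and Hnrnpk lower at ZT7 (-0.21, adjusted p = 0.0433). The brightest probe sets of these genes had the same signs there without passing. Hnrnpd, also called AUF1, binds AU-rich elements and directs decay of the mRNAs that carry them. Its ZT7 signals were 1253, 1348 and 1437 in control and 1057, 1019 and 1078 in TSR livers (-0.35, SE 0.096, adjusted p = 0.0196), and at ZT1 they were 1027, 1089.9 and 1076 against 1259, 1262 and 1382. The order of the treatments thus turned between the 2 times without overlap at either, though Hnrnpd was not called at ZT1. The highest value at each of these times came from a set-apart array. The 4 differences spanned 0.64 (adjusted p = 0.0174). Without the 5 set-apart arrays, over ZT1 to ZT13 alone, the adjusted p was 0.151, and with the score as a covariate it was 0.0588. Hnrnpul1 was lower at ZT13, with 1992, 1682 and 1833 in control and 1439, 755 and 1306 in TSR mice (-0.70, SE 0.196, adjusted p = 0.0219), where 1 TSR liver lay far below the others. Hnrnpa0, which binds AU-rich mRNAs, was higher at ZT13, with 274, 280.4 and 264 in control and 388, 340.2 and 303 in TSR mice (0.33, adjusted p = 0.0234). The ZT13 calls of both were lost without control ZT13 replicate 1 or 3, that of Hnrnpul1 also without TSR ZT13 replicate 2 and that of Hnrnpa0 without TSR ZT13 replicate 1. The Hnrnpd call at ZT7 was lost without control ZT7 replicate 3 or TSR ZT7 replicate 1 or 2, and without the 5 set-apart arrays (-0.31, adjusted p = 0.109). The hnRNP direction in the mean level was not shared: Hnrnpa0 was higher by 0.16 (adjusted p = 0.0153), while Hnrnpf was lower by 0.14 (adjusted p = 0.0359) and Hnrnpk by 0.11 (adjusted p = 0.0232). Without the 5 set-apart arrays, and so over ZT1 to ZT13 alone, the Hnrnpf mean level was -0.04 (adjusted p = 0.547). With all arrays its differences were 0.05, -0.26 and 0.10 at ZT1, ZT7 and ZT13, and -0.47 at ZT19. So the 2 mean levels of Hnrnpf do not cover the same times. Its call was also lost when any of 12 single arrays was left out.

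Among the RBM genes, Rbm26 had the most calls. In human cells its protein has been tied to the nuclear exosome and to decay of polyadenylated nuclear RNA, as has that of its relative Rbm27. In control livers Rbm26 signals stayed between 405 and 519 over the 4 times. After TSR they were 567, 532 and 591 at ZT1, 311, 378 and 360.5 at ZT7, 344, 243 and 272 at ZT13, and 516, 508 and 359 at ZT19. The TSR values at ZT7 and ZT13 lay below every control value of any time, and those at ZT1 above every control value. At ZT7 the control signals were 519, 491 and 486, and the difference was -0.52 (SE 0.132, adjusted p = 0.0156), 1.43-fold lower after TSR. At ZT13 the control signals were 448, 477 and 416, and the difference was -0.66 (SE 0.132, adjusted p = 0.00472), 1.57-fold lower. At ZT1 control livers measured 483, 445 and 488, and the difference of 0.25 did not pass (SE 0.132, adjusted p = 0.296). At ZT19 they measured 481, 405 and 415, overlapping with TSR (0.07, adjusted p = 0.735).

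The TSR differences of Rbm26 were unequal over the day, spanning 0.91 (adjusted p = 0.0100). A 24 h cosine had an amplitude of 0.53 on the log2 scale in TSR mice with its peak at ZT23.6 (adjusted p = 0.0163), against 0.11 in controls (adjusted p = 0.204), and the difference of the 2 curves passed as well (adjusted p = 0.0263), the only such member. Over all tested probe sets 0.367% passed that test. The mean level was lower by 0.21 (SE 0.066, adjusted p = 0.0239). Under 33 alternatives the ZT13 call was kept in 32, the ZT7 call in 29, the TSR rhythm in 33 and the rhythm difference in 25. The ZT7 call was lost without control ZT7 replicate 1, without TSR ZT7 replicate 1 and without the 5 set-apart arrays (-0.53, adjusted p = 0.0608). The rhythm difference was lost without control ZT1 replicate 2, control ZT7 replicate 1, control ZT13 replicate 2, TSR ZT1 replicate 1 or 3, or TSR ZT19 replicate 2. Its relative Rbm27 was lower at ZT13 (-0.39, adjusted p = 0.0160) and in the mean level (-0.17, adjusted p = 0.0214).

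The 3 RBM genes higher at ZT1 act in different steps. Rbm4 controls alternative exons, Rbm14 is a paraspeckle protein and coactivator, and Rbm15 guides the writer of N6-methyladenosine. Rbm4 measured 167, 153 and 163 in control and 207, 201 and 324 in TSR mice (1.48-fold, log2 0.56, SE 0.134, adjusted p = 0.0307), with TSR ZT1 replicate 3, a set-apart array, far above the other TSR values. Rbm14 measured 279, 237 and 240.3 in control and 345, 343 and 358 in TSR mice (1.39-fold, log2 0.47, SE 0.096, adjusted p = 0.0125). For Rbm15 the signals were 293, 254 and 335 in control and 373, 378 and 415 in TSR mice (1.33-fold, log2 0.41, adjusted p = 0.0251). Each of these pairs was free of overlap, and the Rbm4 and Rbm14 calls were both lost without control ZT1 replicate 2 or 3 or TSR ZT1 replicate 3, that of Rbm4 also without control ZT1 replicate 1. The Rbm15 call was lost without control ZT1 replicate 1 or 2 or TSR ZT1 replicate 3.

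Rbm25, Rbm39 and Rbm17 were also called at ZT13, in both directions. Rbm25, a partner of the U1 particle, measured 1199, 1435 and 1335 in control and 949.6, 904 and 997 in TSR livers (-0.47, SE 0.116, adjusted p = 0.0119). Rbm39, related to the large U2AF subunit, was in contrast higher, with 483, 546 and 510.3 in control and 618, 742 and 757 in TSR livers (0.46, SE 0.106, adjusted p = 0.00954). Rbm17, another U2AF-like factor, measured 933, 809 and 983 against 1057, 1132 and 1293 (0.35, SE 0.096, adjusted p = 0.0195). None of these groups overlapped, which held for every member called at a single time. The second probe set of Rbm39 gave -0.72 at ZT13 (adjusted p = 0.203), the opposite sign, and 0.08 in the mean level, so the Rbm39 direction belongs to 1 of its 2 probe sets. The other 3 probe sets of Rbm25 were lower too, without passing. Rbm47, a cofactor of apolipoprotein B mRNA editing, was lower at ZT13, with 1836, 1862 and 2277 in control and 1408, 1278 and 1524 in TSR mice (-0.50, SE 0.127, adjusted p = 0.0140), and in the mean level (-0.22, adjusted p = 0.0141). Its ZT13 call was lost without control ZT13 replicate 3 or TSR ZT13 replicate 2, that of Rbm27 without the same arrays, and that of Rbm17 without control ZT13 replicate 2 or TSR ZT13 replicate 3. Rbm6 also passed at ZT13, but on a probe set detected on no array, which is given no fold. Its 2 detected probe sets gave -0.00 (adjusted p = 0.996) and 0.10 (adjusted p = 0.556) at ZT13, and 0.98 (adjusted p = 0.0440) and -0.04 (adjusted p = 0.836) at ZT19.

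At ZT19, Rbm7 and Rbm42 were higher and Rbm8a lower after TSR. Rbm7, in human cells a subunit of the nuclear exosome targeting complex, measured 532, 512 and 561 in control and 703, 804 and 774 in TSR mice (0.51, SE 0.097, adjusted p = 0.00747). Rbm42 measured 215, 230.0 and 222 in control, where it was detected on 0 of 3 arrays, and 332, 325 and 330.4 in TSR mice, where it was detected on 2 of 3. It was at least 1.48-fold higher, taking the control probe's own signal as the bound (adjusted p = 0.0178). Rbm8a, the Y14 core protein of the exon junction complex, measured 515, 556 and 545 in control and 338, 333 and 489.5 in TSR mice (-0.50, SE 0.147, adjusted p = 0.0301), where the high TSR value is the array with pancreatic markers. Without overlap in these sets, the differences still set TSR against 3 set-apart control arrays. With the score as a covariate they were 0.35 for Rbm7 (adjusted p = 0.155), 0.23 for Rbm42 (adjusted p = 0.346) and -0.19 for Rbm8a (adjusted p = 0.488). The Rbm8a call was lost without any 1 of the 3 control arrays, TSR ZT19 replicate 1 or TSR ZT19 replicate 2. The Rbm42 call at ZT19 was lost without any 1 of the 3 control arrays, and its higher signal at ZT7 (0.43, adjusted p = 0.0499) was lost when any of 18 single arrays was left out.

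For the mean level over the 4 times, 14 members (22.2%) passed, 10 lower and 4 higher, against 27% of all tested probe sets (13.2% lower and 13.8% higher). The share was below the background. The higher ones were Rbm42 (0.26, adjusted p = 0.0142), Rbm39 (0.23, adjusted p = 0.00395), Hnrnpa0 and Rbm18 (0.13, adjusted p = 0.0281). The lower ones were Scaf11, Srsf2, Rbm47, Rbm26, Akap17b, Srsf4, Rbm27, Rbm38 (-0.16, adjusted p = 0.0352), Hnrnpf and Hnrnpk. The single arrays of all 14 overlapped between treatments over the 4 times. Leaving out single arrays gave 12 to 18 calls. The Rbm38 call was lost when any of 11 single arrays was left out, and that of Rbm18 when any of 5 was. Without the 5 set-apart arrays, and so over ZT1 to ZT13 alone, limma lost the calls of Rbm42 (0.18, adjusted p = 0.0570), Hnrnpk (-0.07, adjusted p = 0.273), Rbm38 (-0.16, adjusted p = 0.103) and Hnrnpf. With the score as a covariate these calls were kept. Rbm42 was detected on 8 of 12 arrays in each treatment.

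**Figure D5:**
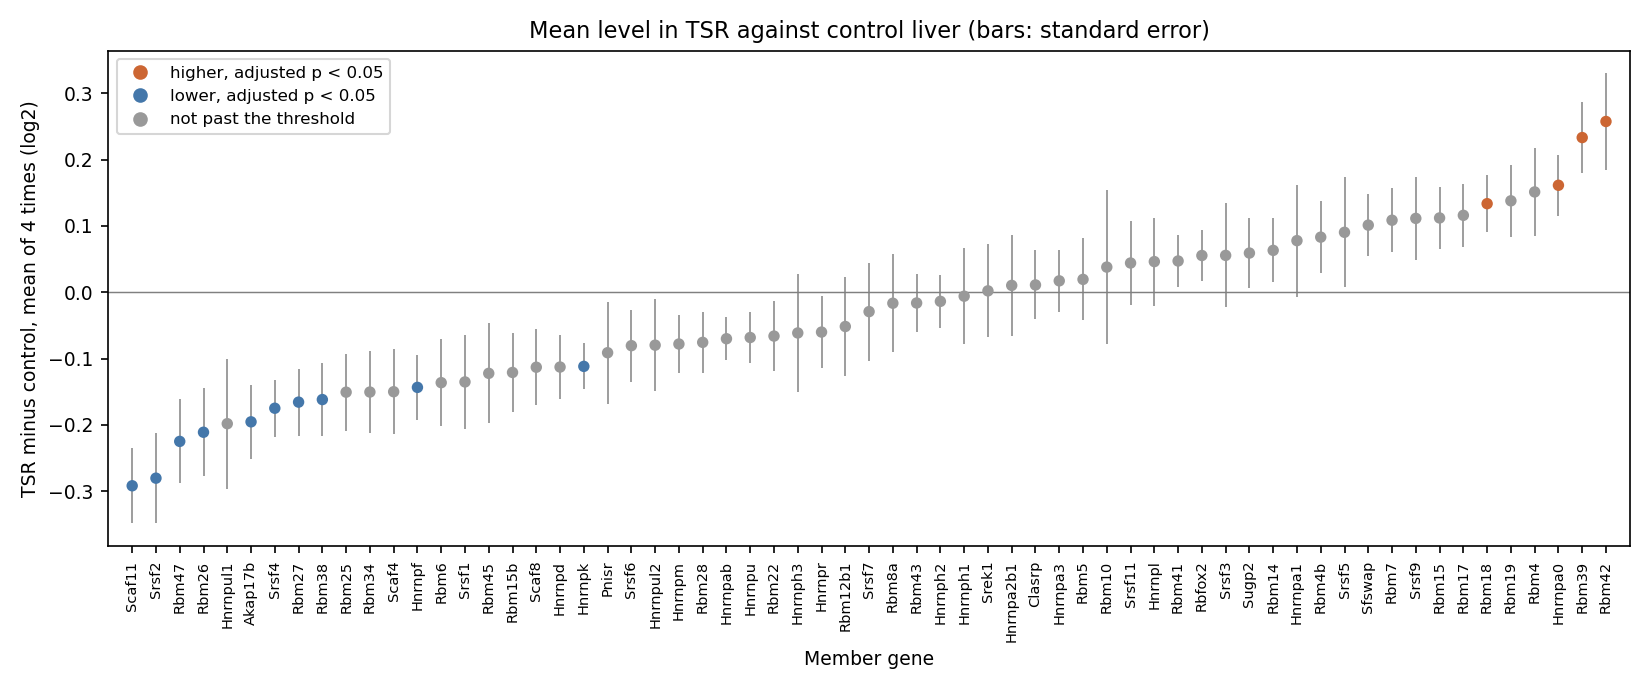
TSR minus control difference in mean level over the 4 times (log2, y axis) with its standard error for each tested member (x axis, in order of the difference), coloured where past the limma threshold of 0.05 and grey otherwise. Scaf11 at -0.29 lies lowest and Rbm42 at 0.26 highest.

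The TSR difference varied between the 4 times in 19 members (30.2%), against 20.6% of all tested probe sets. Srsf7, Rbm26, Rbm14, Hnrnpa3, Sfswap and Hnrnpd had the lowest adjusted p, and the range of the 4 differences was 0.68 for Rbm14 (adjusted p = 0.0126) and 0.66 for Hnrnpa3 (adjusted p = 0.0129). Rbm12b1 (Rbm12b) spanned 0.87 (adjusted p = 0.0209) and Pnisr 0.92 (adjusted p = 0.0311). No single array removed the calls of the first 6, while that of Rbm12b1 was lost without control ZT1 replicate 2 or TSR ZT1 replicate 3 and that of Pnisr without any of 5 arrays. The count was 11 without control ZT1 replicate 2 and 29 without TSR ZT19 replicate 3. Without the 5 set-apart arrays, and so over ZT1 to ZT13 alone, limma called 0, with 18 members at an unadjusted p under 0.05.

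Daily rhythms, tested as a 24 h cosine within each treatment, were called in 8 members in control mice, against 12.6% of all tested probe sets, and in 3 members after TSR, against 2.47%. In controls Hnrnpl, which binds CA repeats, had an amplitude of 0.38 on the log2 scale with its peak at ZT7.49 (adjusted p = 0.00748). Its control values were 1462, 1613 and 1199 at ZT7 and 855, 842 and 818 at ZT19, the lowest of the day. Sfswap (0.24, peak ZT5.60, adjusted p = 0.0176), Rbm7 (0.26, ZT7.15, adjusted p = 0.0204), Srsf11 (0.22, ZT5.83, adjusted p = 0.0288) and Scaf4 (0.19, ZT7.01, adjusted p = 0.0298) also peaked in the light phase. Rbm8a peaked at ZT18.8 (0.29, adjusted p = 0.0308) and Rbm25 at ZT16.1 (0.21, adjusted p = 0.0363), in the dark. All 3 control ZT19 arrays are set-apart arrays, and the control means of Hnrnpl, Sfswap, Rbm7, Srsf11 and Scaf4 were lowest, and that of Rbm8a highest, at that time. The control count was 2 without control ZT7 replicate 1 or 2, 20 without control ZT7 replicate 3, 2 without control ZT19 replicate 1 or 3, 1 without control ZT19 replicate 2, and 3 without the 5 set-apart arrays, none of which were among the 8. Of the 8 calls, that of Hnrnpl was the one that no single array removed, and that of Rbm25 was lost when any of 9 was left out.

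After TSR the rhythmic members were Rbm12b1, Rbm26 and Pnisr, with peaks at ZT22.7, ZT23.6 and ZT23.4, near lights on. Rbm12b1 had an amplitude of 0.62 (adjusted p = 0.00764), with TSR means of 716 ± 153, 343 ± 29.8, 347 ± 25.4 and 561 ± 64.1 from ZT1 to ZT19 (SD, n = 3). Pnisr had an amplitude of 0.50 (adjusted p = 0.0251), with TSR means of 433 ± 55.7, 301 ± 43.6, 233 ± 52.7 and 393 ± 8.59. Both were highest at ZT1 and low at ZT7 and ZT13. The Pnisr rhythm was lost without TSR ZT1 replicate 2 or 3 or TSR ZT13 replicate 1 or 2. Rbm12b1 was rhythmic in controls as well (0.41, peak ZT20.9, an adjusted p just inside the threshold of 0.05), and that call was lost when any of 10 single arrays was left out. The TSR count was 5 without TSR ZT19 replicate 3. Rbm26 was the 1 member called for a rhythm difference, a limma count that was 0, with 11 to 14 members at an unadjusted p under 0.05, without control ZT1 replicate 2, control ZT7 replicate 1, control ZT13 replicate 2, TSR ZT1 replicate 1, TSR ZT1 replicate 3 or TSR ZT19 replicate 2. It was 2 without control ZT7 replicate 3, control ZT13 replicate 3 or TSR ZT13 replicate 2, 3 without TSR ZT13 replicate 3 and 7 without TSR ZT19 replicate 3.

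Among kinases that phosphorylate SR proteins and their partners, Clk1, Clk4 and Prpf4b were higher at ZT1 and lower at ZT7. They were 3 of 8 tested genes on this list at each time (37.5%, against 2.72% and 14.8% of all tested probe sets), and the list medians were 0.00 and -0.21. Clk1, whose product phosphorylates SR proteins in the nucleus, was 0.60 higher at ZT1 (adjusted p = 0.0110) and 0.52 lower at ZT7 (-0.52, adjusted p = 0.0104). Clk4, its close relative, measured 0.52 at ZT1 (adjusted p = 0.0113) and -0.48 at ZT7 (adjusted p = 0.00801), and its rhythm differed between treatments (adjusted p = 0.0342). Prpf4b, a kinase of the tri-snRNP, measured 0.49 (adjusted p = 0.0383) and -0.52 (adjusted p = 0.0106). At ZT13, Dyrk1a (-0.57, adjusted p = 0.00992) and Srpk2 (-0.44, adjusted p = 0.0164) were lower. The genes of this list and of the lists below were not tested under the alternatives that were run for the members. Among the members, 0 calls remained at ZT1 without the 5 set-apart arrays, and 0 at ZT19 with the score as a covariate.

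Calls in the core spliceosome list at ZT13 were mostly higher after TSR. Of its 60 tested genes 14 passed there (23.3%, against 17.8% of all tested probe sets), 12 higher and 2 lower, with Prpf19 (0.44, adjusted p = 0.00493), the Sm protein Snrpd3 (0.55, adjusted p = 0.0106) and Snrpg (0.30, adjusted p = 0.0127) among the higher ones. In the mean level 17 passed (28.3%, close to the 27% of all), 13 higher and 4 lower. At ZT7, 11 passed (18.3%, against 14.8%), 4 higher and 7 lower, with Snrpc (0.60), Snrpb (0.62), Ddx46 (-0.60) and Ddx42 (-0.36) at the lowest p. At ZT19, 6 passed (10%, against 15.1%), 5 higher and 1 lower. The list of other splicing regulators also names Rbfox2 (Rbm9), which as a member was not counted in it. Among the 39 tested genes of this list, 3 were higher at ZT1 (7.69%, against 2.72%), among them Pspc1 (0.65) and Luc7l (0.40). At ZT7, 9 were called (23.1%, against 14.8%), 7 of them lower, among them Pspc1 (-0.47), Syncrip (-0.51) and Ptbp2 (-0.54). At ZT13, 6 of 7 calls (17.9%, against 17.8%) were lower, among them Celf2 (-0.51) and Mbnl1 (-0.46), and at ZT19 all 5 calls (12.8%, against 15.1%) were higher, among them Elavl1 (0.46) and Pcbp1 (0.85). Of 6 exon junction genes, 2 were called in the mean level (33.3%, against 27%) and 2 at ZT7 (33.3%, against 14.8%). At ZT13 1 was called (16.7%, against 17.8%) and at ZT19 2 were (33.3%, against 15.1%). The helicase Eif4a3 was higher in the mean level (0.31), at ZT7 (0.34) and at ZT13 (0.65). The decay factor Upf2 was lower in the mean level (-0.21), at ZT7 (-0.40) and at ZT19 (-0.51), while Upf3a was higher at ZT19 (0.70).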

How the data were processed

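Liver RNA was extracted with Trizol, biotin labelled and hybridized to Affymetrix Mouse Gene 1.0 ST arrays. The deposited signals are intensity values normalized by the authors with d-Chip, with no version or steps given in the sources used here. A detection p-value and call per array were deposited as well, and calls equalled a p at or below 0.05 in 99.987% of cases. The 2 deposited tables held the same values. Signals under 1 were set to 1 and log2 transformed. Each probe set carries 1 symbol in the file. Probe sets with a symbol and a mean above 97.4 were tested in limma 3.58.1 (R 4.3.3) over 8 group means, with Benjamini-Hochberg adjustment over all 12803 and a threshold of 0.05. Rhythm was a moderated F-test of a 24 h cosine and sine. A change of the difference over time was an F-test. Scripts were tested on simulated data. Python 3.11.15 with pandas 2.3.3, numpy 2.4.6 and matplotlib 3.10.9 was used for the rest. SE is the standard error of a log2 difference, and SD that of the signals of 3 mice.

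Members and lists were chosen with earlier results of these data known. Named were Rbm26; per comparison the 5 members with the largest rise and the 5 with the largest fall that passed, or the 6 with the lowest adjusted p for rhythms and changing differences; the 2 brightest and 2 dimmest of each family; members called in 3 or more of 9 comparisons; and up to 4 genes per comparison of the other lists. Other called members were named after their values were seen. The number of arrays limits the precision. Alternatives changed the filter, the log offset (16), the normalization, the probe set, the replicate block, the array weights, the test and the arrays used. The adipose-labelled arrays were not used here. Some genes of the other lists are not reported here.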

Additional observations from a re-analysis of the deposited data

Results flagged for a closer look

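The TSR difference was unequal between the 4 time points by the moderated F-test in 19 members, on 24 arrays with 3 mice per group. The adjusted p was 0.00566 for Srsf7, 0.0100 for Rbm26, 0.0126 for Rbm14, 0.0129 for Hnrnpa3, 0.0148 for Sfswap, 0.0174 for Hnrnpd and 0.0180 for Rbm4. It was 0.0190 for Rbm7, 0.0205 for Srsf11, 0.0209 for Rbm12b1, 0.0215 for Hnrnpf, 0.0228 for Rbm17 and 0.0296 for Scaf4. For Pnisr it was 0.0311, for Hnrnpab 0.0318, for Rbm25 0.0327, for Rbm15 0.0338, for Rbm8a 0.0394 and for Rbm42 0.0480. Without the 5 set-apart arrays, and so over ZT1 to ZT13 alone, limma called 0 members, while 18 had an unadjusted p under 0.05. The adjusted p was then 0.0530 for Srsf7 and 0.0937 for Rbm26. The range of the differences was then 1.29 on the log2 scale for Srsf7 (1.34 with all arrays), 0.87 for Rbm26 (0.91) and 0.20 for Hnrnpa3 (0.66). The 24 h curve of Rbm26 differed between TSR and control mice with an adjusted p of 0.0263. Groups of 3 are too small for a test of single outlying arrays.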

How the results depend on the processing

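Counts of members called are given against those of the report, 14 for the mean level, 4, 9, 14 and 12 from ZT1 to ZT19, 19 for a changing difference, 8 and 3 for control and TSR rhythms and 1 for a rhythm difference. Without a filter the counts were 8 (mean level), 2 (ZT1), 5 (ZT7), 4 (ZT19), 11 (changing difference), 1 (control rhythm) and 0 (rhythm difference). The stricter filter gave 2 rhythm differences. Quantile normalization gave 16 calls at ZT7 and 2 rhythm differences, and moved the higher share of all calls from 51.2% to 34.7% for the mean level, from 61.2% to 49.6% at ZT1, from 50.7% to 36.9% at ZT7 and from 48.3% to 33.8% at ZT13. Array weights gave 19 at ZT1, 21 at ZT7, 28 at ZT19, 48 for a changing difference, 22 and 17 for control and TSR rhythms and 22 rhythm differences. The shares of all tested probe sets called with array weights are not given here, so these counts do not set the members apart from other genes. The methods' t-test, adjusted, gave 6 for the mean level, 0 at ZT1, ZT7 and ZT13 and 7 at ZT19, and unadjusted 13, 20, 20, 13 and 22. Without the 5 set-apart arrays the counts were 0 (ZT1), 1 (ZT7), 0 (changing difference), 3 (control rhythm) and 0 (rhythm difference), and ZT19 could not be fitted. The changing difference and the control curves then rested on ZT1, ZT7 and ZT13 alone. The score of that pattern as a covariate gave 2 at ZT1, 9 at ZT13, 0 at ZT19, 7 for a changing difference and 7 rhythm differences. The cause of these shifts was not tested. Leaving out each array gave 12 to 18 (mean level), 0 to 6 (ZT1), 1 to 14 (ZT7), 7 to 15 (ZT13), 2 to 14 (ZT19), 11 to 29 (changing difference), 1 to 20 (control rhythm), 2 to 5 (TSR rhythm) and 0 to 7 (rhythm difference).

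Deviations from the group means were correlated between arrays. Of 12 same-numbered pairs of control with TSR at the same time point, 4 correlated above 0.1. Over arrays of different groups, within or between treatments, the median was 0.05 for same-numbered pairs and -0.03 for others. Same-numbered pairs ran from -0.38 to 0.76. The main tests did not use the replicate number as a pairing. The replicate block gave 5 control rhythms, and 14, 5, 9, 14, 13, 23, 3 and 1 for the other counts in the order above. Of 2858 values of named members under alternatives, 2387 kept direction and side of the threshold, 467 kept direction only and 1 call reversed, Rbm39 at ZT13 on its second probe set (-0.72, adjusted p = 0.203). The other 3 were of Rbm26 at ZT19, not called under any setting, whose 0.07 turned to -0.03 with the score as a covariate, -0.02 without TSR ZT19 replicate 1 and -0.01 without TSR ZT19 replicate 2. Ranges of the differences, rhythm amplitudes and rhythm differences are never below 0, so for these the direction could not change. Their peak times, and the order of the differences, were not compared between alternatives. Mean-level calls of Scaf11, Srsf2, Srsf4 and Hnrnpa0 held under all 33 alternatives.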
